A study of Arabidopsis thaliana with 6 samples.

Results

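The genes with the strongest array signal in wild-type leaf trichomes are described here, 150 of the 13212 genes on chromosomes 1 to 5 that could be chosen. A gene could be chosen if a probe set of the array was assigned to it alone. The light-harvesting and Calvin cycle genes LHCB4.1, LHCB4.2, RCA, SBPASE and PRK were left out. Genes with the words ribosomal protein in their name were to be left out too, but the names available here removed 0 genes. Such genes are therefore likely still among the members. Each gene was represented by the probe set with its highest mean over the 3 wild-type arrays, and the genes were ordered by that mean. The wild-type level thus chose the members and is given only as a description. The choice also pulls the wild-type mean of a member upward, so it tilts a comparison with the mutant towards lower values in the mutant.

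RNA came from trichomes of wild-type Arabidopsis thaliana and of the gtl1-1 mutant, with 3 biological replicates and so 3 arrays per genotype. GTL1, a trihelix transcription factor, is known to end the growth of trichome cells. Plants of both genotypes had grown on plates with 1% sucrose in continuous light at 22 °C, and trichomes were taken off the fifth and the sixth rosette leaf with forceps at an age of 3 weeks. The labels give no ecotype, no other allele and no count of plants per replicate.

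A leaf trichome of Arabidopsis is a large branched cell of the epidermis that stops dividing early and copies its DNA repeatedly without division. Its mature form is known for a thick wall with small surface bumps, for a cortical network of microtubules that guides its growth, and for a large vacuole with defence compounds. Transcripts for primary metabolism, protein turnover and photosynthesis are abundant in most leaf cells. A gene list by strength of signal therefore mixes functions of the trichome with those that many leaf cells share.

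The function of most members could not be read from the names used here. The gene table used here gives only a locus code for 120 of the 150 members, and a descriptive name for 30 (20%). Among all 13212 genes, 12.6% had such a name. The words ribosomal protein stood in the name of 0 of the genes that could be chosen, so this part of the choice removed nothing. Ribosomal protein genes are thus likely to remain among the 120 members without a name, whose locus codes were not looked up elsewhere. Functions are described below for the 30 named members only.

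The values are log2 expression estimates, on which 1 unit is a 2-fold difference. The arrays had medians from 5.48 to 5.57, and they correlated at r between 0.989 and 0.996 across probe sets. Arrays have no sequencing depth, and the 3 arrays per genotype limit the precision. Of the trichome markers read, 3 of 11 had a probe set of their own (TRY, GIS and SIM). Their summed level, as log2 of the summed linear values, was 11.58 to 11.91 in wild type and 11.51 to 12.37 in the mutant. Of the mesophyll photosynthesis markers 1 of 10 was measured (RCA, 13.27 to 13.85 against 13.40 to 13.74). Of the stomatal lineage 3 of 6 were measured (SPCH, MUTE and FMA, summed 6.52 to 7.45 against 6.36 to 6.86), of the phloem 1 of 5 (SWEET11, 3.86 to 5.35 against 4.88 to 5.43) and of the epidermis 0 of 4. The ranges of these sums overlapped between genotypes. SIM, at 11.43 to 12.29 on the 6 arrays, makes up most of the trichome sum. GIS read 5.34 to 5.49 in wild type and 5.86 to 6.62 in the mutant, without overlap, a difference of 0.84 (limma adjusted p = 0.14). TRY had a difference of -0.99 (limma adjusted p = 0.415), with overlap. The annotation gave GTL1 no probe set here, so the mutant label was not checked on that gene.

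The members lay near the top of every array. Their wild-type means ran from 12.08 to 14.20 with a median of 12.55, and the lower end stood at the 98th percentile of the probe sets of each array (98.01 to 98.12). Probe sets assigned to no gene (8730) or to several (503) could not be chosen. The 150 members, 0.659% of the probe sets other than controls, are thus only part of the probe sets above that level. All 150 were tested, and all lay above the 90th percentile of each array on all 6 arrays. The strength of a probe set also depends on its probes, so the order is one of signals and not of transcript numbers. The limit did not fall at a gap. The members AT3G07110, AT4G16450 and AT1G13930 stood just inside it at 12.09, 12.08 and 12.08, and AT5G11070, SKU5 and PGY1 just outside at 12.08, 12.07 and 12.06. PGY1 is known to encode a protein of the ribosome, and its entry in the gene table does not hold the words that were searched for.

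These 150 probe sets are 0.659% of the probe sets on the array other than controls. They held between 11.52% and 11.88% of the summed linear signal on the wild-type arrays and between 11.27% and 11.54% on the mutant arrays. The means were 11.66% ± 0.19 and 11.36% ± 0.15 (SD, n = 3 per genotype), and the ranges overlapped. The deposited values had been quantile normalised by the authors, which sets the upper end of each array to a like level. The 99th percentile lay between 12.62 and 12.70 on all 6 arrays, so a change in the total level of strong transcripts cannot be read from these values.

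Among the 30 named members, the means of the photosynthesis and pigment class were lower in the mutant and those of the wall and cytoskeleton class higher. CURT1A, AT1G74470 and TBL38 of these classes overlapped between genotypes, and none of the 30 passed the test across the array. The classes were formed by hand after the values were seen. Across all 150 members, 1 had a limma adjusted p under 0.05, where 0.921% of the 13682 probe sets tested had one. At an unadjusted limma p under 0.05 there were 11 members higher in the mutant (7.8% of all probe sets tested were) and 17 lower (7.15% of all). As a share of the members, these are 7.33% and 11.3%. RNA came from many cells together, so a change in RNA per cell and a change in the mix of cells cannot be told apart for any gene.

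**Figure D1:**
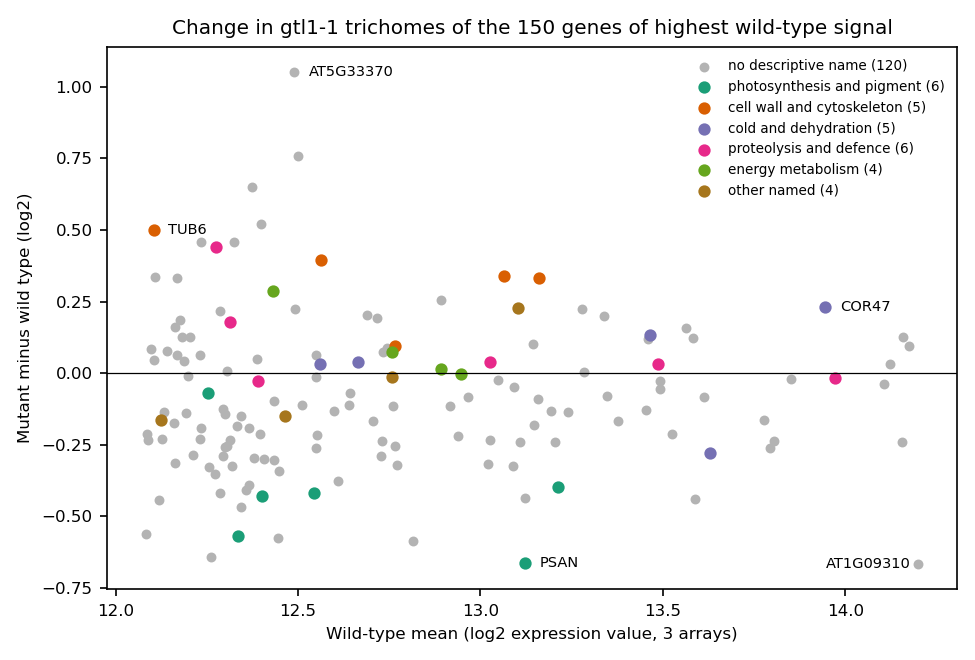
Each point is 1 of the 150 members, with its wild-type mean on the horizontal axis (log2 expression value, 3 arrays) and the mutant minus wild-type difference on the vertical axis (log2, 3 arrays per genotype). Colours mark the classes of the 30 named members and grey the 120 without a name. AT5G33370 stands highest at 1.05, AT1G09310 lowest at -0.67, and the photosynthesis members all lie below 0.

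Photosynthesis and pigment synthesis were represented by 6 named members. All 6 had a negative difference between mutant and wild type, with a median of -0.42 on the log2 scale. For 4 of them the mutant was lower without overlap, as it was for 10.1% of all probe sets tested, and the unadjusted limma p was under 0.05, as for 7.15% of all in that direction. The classes were put together by hand after the values were seen, so these counts are a description only. None was called (limma adjusted p from 0.167 to 0.846).

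PSAN is a subunit of photosystem I on its luminal side, near the docking site of plastocyanin. It read 13.10, 13.32 and 12.95 on the 3 wild-type arrays and 12.68, 12.51 and 12.20 on the 3 mutant arrays. Every mutant array was below every wild-type array, with a difference of -0.66 ± 0.17 (log2 ± SE, limma adjusted p = 0.167). PSAE-1, a stromal subunit of the same photosystem, read 13.26, 13.38 and 13.00 in wild type and 12.83, 12.78 and 12.83 in the mutant. Here too the groups were apart, by -0.40 ± 0.14 (limma adjusted p = 0.255), and the mutant arrays differed little among themselves (SD 0.0283).

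PSBW and PSBY are small membrane subunits of photosystem II. PSBW read 12.23, 12.57 and 12.20 in wild type and 11.81, 11.84 and 11.64 in the mutant, a difference of -0.57 ± 0.15 (limma adjusted p = 0.17). It was the only named member to leave the 200 highest genes, moving from rank 104 to rank 213. PSBY read 12.63, 12.77 and 12.23 in wild type and 11.95, 12.20 and 12.23 in the mutant. Its lowest wild-type array lay only just above its highest mutant array, and the difference was -0.42 ± 0.18 (limma adjusted p = 0.33).

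The 2 other members of this class overlapped between genotypes. AT1G74470, named geranylgeranyl reductase, makes the side chain precursor of chlorophyll and tocopherol. It had a difference of -0.43 ± 0.20 (limma adjusted p = 0.377). Mutant replicate 1, at 12.33, lay within its wild-type range of 12.26 to 12.65. CURT1A, which bends the thylakoid membrane at the margins of grana, averaged 12.25 ± 0.16 on the wild-type and 12.18 ± 0.12 on the mutant arrays (SD, n = 3).

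The photosynthesis genes that the choice left out did not move as one. LHCB4.1 and LHCB4.2, antenna proteins of photosystem II, had differences of -0.39 and -0.99 (limma adjusted p = 0.295 and 0.171). Both were lower in the mutant without overlap, as were 10.1% of all probe sets tested. RCA, SBPASE and PRK, which serve carbon fixation, had 0.01, 0.03 and 0.05, with overlap. RCA is also the mesophyll marker measured here, and its level overlapped between genotypes. The part that carried-over mesophyll might have in the lower photosystem values was not tested.

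**Figure D2:**
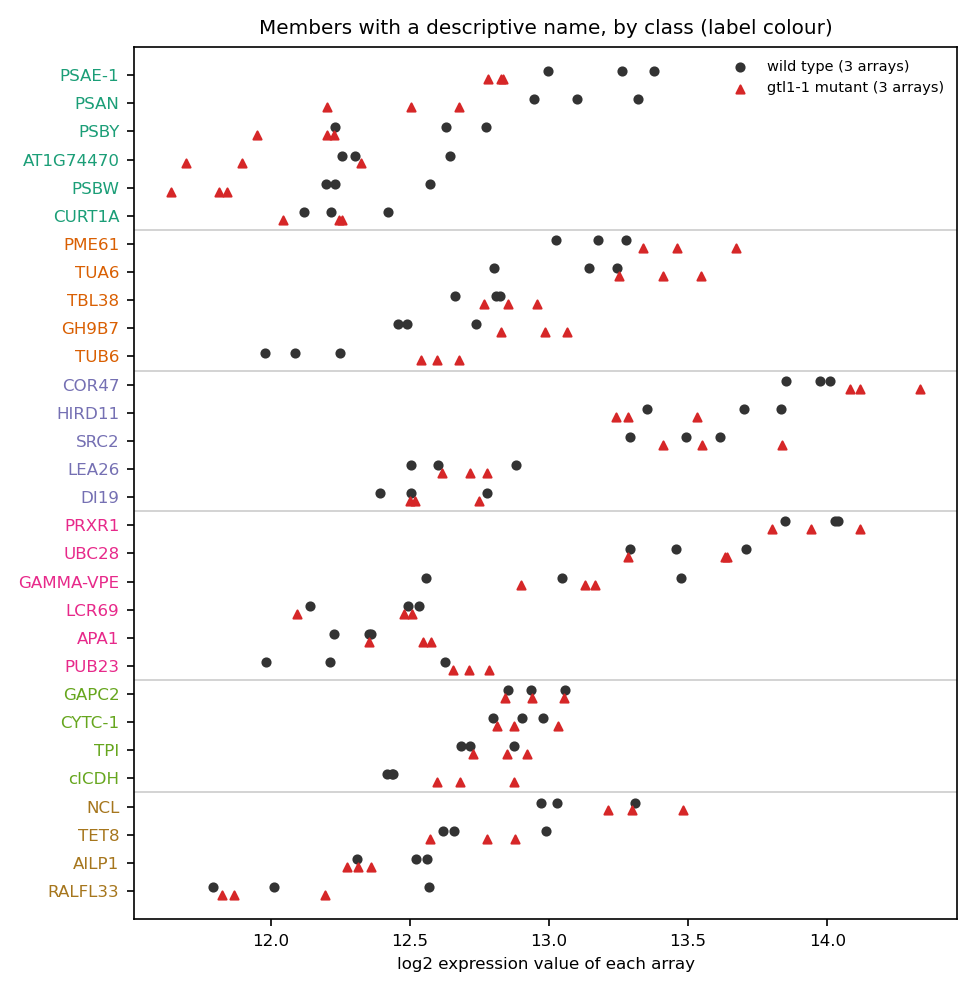
Each row is 1 of the 30 named members, with its log2 expression value on each of the 3 wild-type arrays (black circles) and 3 mutant arrays (red triangles). Label colours give the class, and rows follow the wild-type rank within a class. The mutant triangles lie left of all wild-type circles for PSAE-1, PSAN, PSBY and PSBW and right of them for PME61, TUA6, GH9B7, TUB6, COR47, PUB23 and cICDH.

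The 5 named members that act on the cell wall and cytoskeleton all had positive differences, with a median of 0.34. For 4 of them the mutant was higher without overlap, against 10.8% of all probe sets tested. The unadjusted limma p was under 0.05 for 2, TUB6 and GH9B7, against 7.8% of all in that direction. None was called (limma adjusted p from 0.16 to 0.751). This class too was put together by hand after the values were seen, so its counts are a description only.

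TUB6, a beta-tubulin of the microtubules, read 12.25, 11.98 and 12.09 in wild type and 12.67, 12.54 and 12.60 in the mutant, a difference of 0.50 ± 0.13. It had the largest difference upward among the named members. TUA6, an alpha-tubulin, read 13.24, 13.14 and 12.80 in wild type and 13.25, 13.41 and 13.55 in the mutant. The groups of TUA6 were apart by a narrow margin, since wild type replicate 1 lay just below mutant replicate 1.

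GH9B7, of the glycosyl hydrolase family with endoglucanases that act on wall glucans, read 12.74, 12.49 and 12.46 in wild type and 12.99, 12.83 and 13.06 in the mutant. Its difference was 0.40 ± 0.14 (limma adjusted p = 0.253). PME61, a pectin methylesterase, read 13.18, 13.02 and 13.28 in wild type and 13.67, 13.46 and 13.34 in the mutant. That is a difference of 0.33 ± 0.14 (limma adjusted p = 0.339). Enzymes of this type take methyl groups off pectin and so alter how firmly it is crosslinked. TBL38 belongs to the family named after TRICHOME BIREFRINGENCE, many of whose members acetylate wall polysaccharides. Whether TBL38 itself does so is not shown here. TBL38 overlapped between genotypes, with 12.77 ± 0.09 on the wild-type and 12.86 ± 0.10 on the mutant arrays (SD, n = 3).

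**Figure D3:**
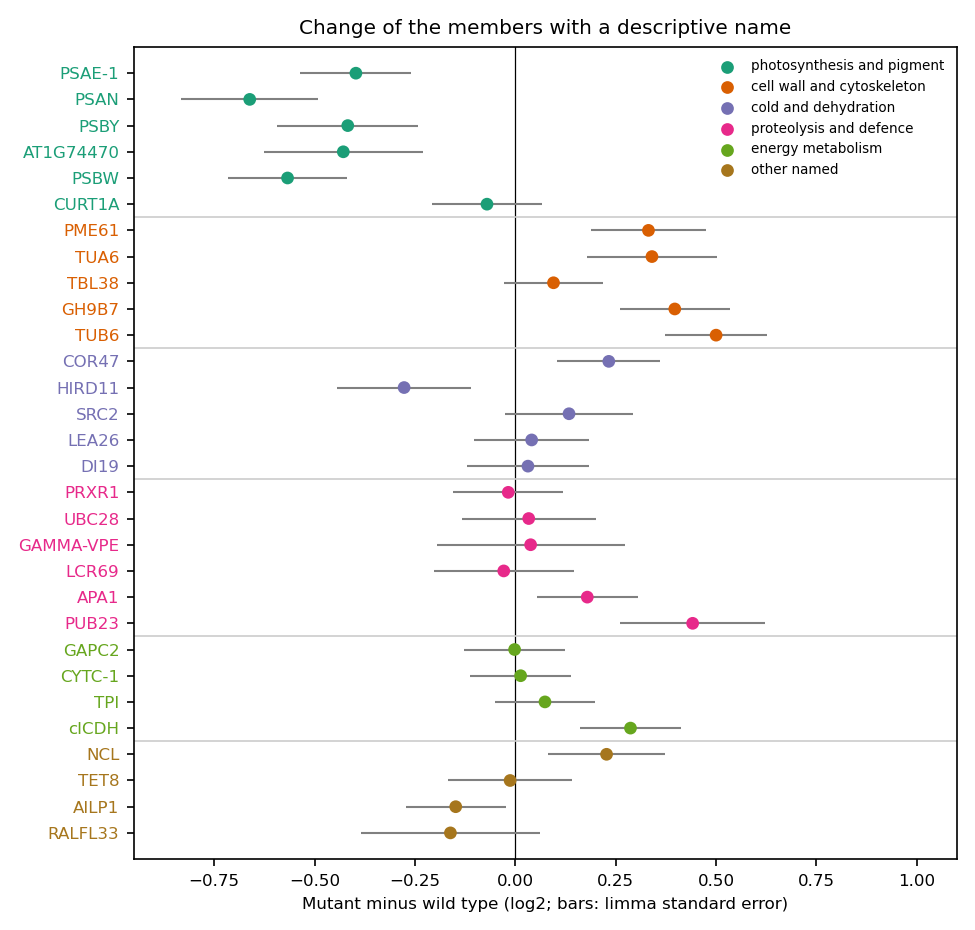
The mutant minus wild-type difference of each of the 30 named members is shown on the log2 scale (points), with the limma standard error (bars, 3 arrays per genotype). Differences run from -0.66 for PSAN to 0.50 for TUB6, and those of GAPC2, CYTC-1 and PRXR1 lie at -0.00, 0.01 and -0.02.

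Genes named for cold and dehydration supplied 5 members, and 4 of the 5 differences were positive with a median of 0.04. COR47, a dehydrin that protects cells in cold and drought, had the second highest signal among the named members. It read 14.01, 13.85 and 13.97 in wild type and 14.08, 14.33 and 14.12 in the mutant. The mutant arrays of COR47 lay above all wild-type arrays, but by 0.23 ± 0.13 only (limma adjusted p = 0.449). HIRD11, a small dehydrin, had the single negative difference of the class, -0.28 ± 0.17, and overlapped between genotypes. SRC2, named as a cold-regulated gene after its soybean counterpart, LEA26, a late embryogenesis abundant protein, and DI19, named as drought-induced, overlapped as well. Their differences were 0.13 ± 0.16, 0.04 ± 0.14 and 0.03 ± 0.15.

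Proteolysis and defence held 6 named members, of which 4 had positive and 2 negative differences (median 0.04). The 2 negative ones were PRXR1 (-0.02) and LCR69 (-0.03), and LCR69 stood at 0.01 with a second quantile normalisation. A common median adds 0.0277 to the difference of every gene, so it brings PRXR1 to 0.01. PUB23 is a ubiquitin ligase known to restrain immune responses. It read 12.21, 11.98 and 12.63 in wild type and 12.65, 12.78 and 12.71 in the mutant, so the groups were apart although wild type replicate 3 came close. Its difference was 0.44 ± 0.18 (limma adjusted p = 0.317). The other 5 overlapped between genotypes. PRXR1, a peroxidase and the named member of highest signal, averaged 13.97 ± 0.11 on the wild-type and 13.95 ± 0.16 on the mutant arrays (SD, n = 3). UBC28, a ubiquitin-conjugating enzyme, stood at 13.49 ± 0.21 and 13.52 ± 0.20.

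GAMMA-VPE, a protease that matures proteins in the vacuole, varied most among the named members. It read 13.05, 12.56 and 13.47 in wild type and 13.17, 13.13 and 12.90 in the mutant, with a difference of 0.04 ± 0.23. The spread lay between the wild-type arrays (SD 0.458), not between the genotypes. APA1, an aspartic proteinase, had a difference of 0.18 ± 0.13, and LCR69, a cysteine-rich peptide of the defensin type, one of -0.03 ± 0.17.

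Energy metabolism gave the tightest values. The median spread within a genotype was 0.101 in this class of 4, against 0.141 over the 150 members and 0.211 over all probe sets tested. GAPC2, a cytosolic glyceraldehyde-3-phosphate dehydrogenase of glycolysis, read 12.93, 13.06 and 12.85 in wild type and 12.84, 12.94 and 13.05 in the mutant, which is nearly the same range. TPI, the cytosolic triosephosphate isomerase, had a difference of 0.07 ± 0.12, and CYTC-1, a cytochrome c of the mitochondrial electron chain, one of 0.01 ± 0.13. cICDH, the cytosolic isocitrate dehydrogenase that supplies NADPH, was the exception. It read 12.44, 12.42 and 12.44 in wild type and 12.60, 12.68 and 12.87 in the mutant, and the groups were apart by 0.29 ± 0.13 (limma adjusted p = 0.348).

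The 4 remaining named members overlapped between genotypes. NCL, named as an exchanger of sodium and calcium, had a difference of 0.23 ± 0.15. TET8, a tetraspanin of membranes and vesicles, had -0.01 ± 0.16, AILP1 had -0.15 ± 0.13, and RALFL33, a secreted signalling peptide of the RALF family, had -0.16 ± 0.22. RALFL33 ranged from 11.79 to 12.57 in wild type, which spans all of its mutant values.

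Of the 120 members without a descriptive name, 82 had a lower and 38 a higher mean in the mutant, with a median of -0.13. Among the 30 named members, 13 were lower and 17 higher, with a median of 0.03. The difference between these parts of the list was not tested. Ribosomal protein genes are likely among the 120, and the names used here do not mark them, so they were not separated from the others.

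AT5G33370 was the only member that passed the test across the array. It read 12.70, 12.48 and 12.29 on the wild-type arrays and 13.70, 13.55 and 13.38 on the mutant arrays, so all mutant arrays were higher. It rose by 1.05 ± 0.16 (log2 ± SE), a 2.08-fold rise at a limma adjusted p of 0.0369. Blocking on replicate number gave an adjusted p of 0.0507, and with 1 array left out it ranged from 0.0831 to 0.148, so the call rests on all 6 arrays. Its rank among the genes was 84 on the wild-type arrays and 15 on the mutant arrays.

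The next members upward were AT1G04040, with a difference of 0.76 ± 0.18 (limma adjusted p = 0.139), and AT3G05730, with 0.65 ± 0.19 (limma adjusted p = 0.207). Both were higher on all mutant arrays. Of the members, AT1G09310 had the highest wild-type signal and also the most negative difference. It read 14.25, 14.18 and 14.17 in wild type and 13.72, 13.58 and 13.30 in the mutant, -0.67 ± 0.14 (limma adjusted p = 0.11). The groups were well apart, and its rank went from 1 to 18. AT1G29670 had -0.64 ± 0.15 (limma adjusted p = 0.139), while its neighbour on chromosome 1, AT1G29660, also a member, had 0.05. The other adjacent pairs of members were AT1G22885 with AT1G22890, at -0.59 and -0.04, and AT2G27710 with AT2G27720, at -0.32 and -0.38.

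Most members changed little in either direction. The difference was under 0.3 for 110 of the 150, and at least 0.5 for 11 (4 upward, 7 downward). At least 0.5 was reached by 12.2% of all probe sets tested. A change of at least 2-fold was seen in 1 member, against 2.43% of all. The median size of the difference on the log2 scale was 0.195, and over all probe sets tested 0.187, while the median spread within a genotype was smaller (0.141 against 0.211).

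The differences leaned downward, the direction towards which the choice on the wild-type arrays tilts them. The mutant mean was the lower one for 95 members, 63.3%, where 51.2% of all probe sets tested were lower. The median over the members was -0.11, and over all probe sets tested -0.01. The genotypes did not overlap for 16 members higher in the mutant (10.8% of all probe sets tested were) and for 39 lower (10.1% of all), which is 10.7% and 26% of the members. Over both directions these were 55 members, and 20.9% of all probe sets tested did not overlap. Members also had the smaller spread within a genotype (median 0.141 against 0.211), so these shares are not a like comparison. Of the 39 lower ones, 35 had no descriptive name and 4 were the photosystem members above. The 35 may include many ribosomal protein genes, which were to be left out of the list. Their part in the downward lean was not determined, so the lean cannot be taken as a trait of the list as intended.

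The lean was also read under other choices of members. With the 150 genes chosen on all 6 arrays, the median was -0.06. Without overlap, 19 genes were higher (12.7%) and 36 lower (24%), against 10.8% and 10.1% of all probe sets tested. Chosen on the mutant arrays, the median was 0.01, and the counts were 26 (17.3%) and 28 (18.7%). Chosen on 2 wild-type arrays and compared with the wild-type array that had no part in the choice, the median was -0.09, -0.03 or -0.11. With the values quantile normalised again it was -0.06. The 300 genes at ranks 151 to 450 had a median of -0.05 and 0 called. At an unadjusted limma p under 0.05, 20 of them were higher (6.67%) and 27 lower (9%), against 7.8% and 7.15% of all probe sets tested. The 150 highest genes with a descriptive name, which still include PGY1, had a median of 0.02 and 2 calls, HMT-1 (1.33) and SFP1 (-2.61). Of these 150, 120 rank below the members.

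The list itself was largely shared between genotypes. The same rule on the mutant arrays gave 128 of the 150 members, 85.3% of each list, and all 150 were among the 300 highest genes of the mutant. When lists of 150 were made on single arrays, 6 pairs of the same genotype shared between 127 and 133 genes (median 129.5). The 9 pairs of different genotypes shared between 114 and 129 genes (median 121). The ranges overlapped, and 7 of the 9 pairs of different genotypes shared fewer genes than any pair of the same genotype. Of the members, 101 were in the lists of all 6 arrays. These pairs share arrays, so no test was made.

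**Figure D4:**
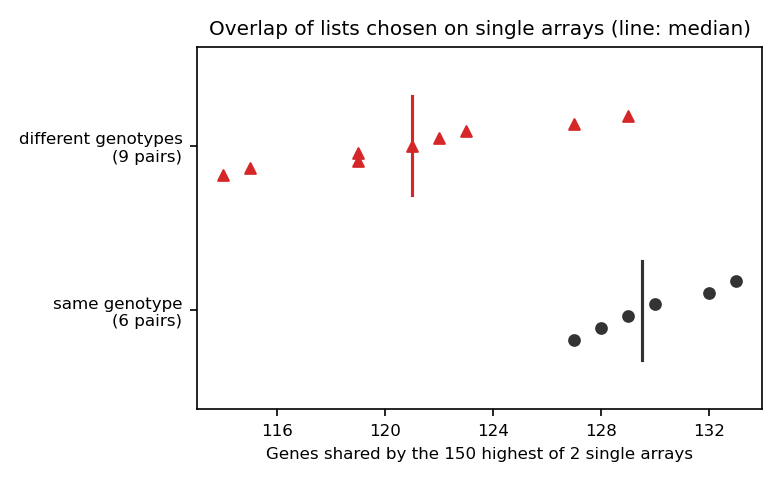
Each point is a pair of arrays and gives the number of genes shared by the 150 highest genes of each. Pairs of the same genotype (black circles, 6) range from 127 to 133, and pairs of different genotypes (red triangles, 9) from 114 to 129. Vertical lines are medians, and the vertical spread within a row only separates the points.

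Few genes entered or left by a wide margin. The members PSBW, AT1G29670, AT1G51400 and AT1G13930 stood below rank 200 in the mutant, at ranks 213, 252, 236 and 277. AT1G13930 read 12.31, 11.94 and 12.00 in wild type and 10.87, 11.90 and 11.79 in the mutant, so mutant replicate 1 sets most of its difference of -0.56 ± 0.28. Without that array its difference was -0.24. In the other direction, 10 genes came into the 150 highest of the mutant from below rank 200. AT2G20870 came from rank 1376 to 73, with a difference of 3.46, and AT5G12420 from rank 493 to 49, with 2.13 ± 0.14 (limma adjusted p = 0.0018).

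Members were spread over the chromosomes much as the genes they were chosen from. Chromosomes 1 to 5 held 39, 25, 33, 24 and 29 members, or 26%, 16.7%, 22%, 16% and 19.3%, against 25.8%, 16.4%, 20.6%, 14.6% and 22.6% of the genes that could be chosen. Members varied in how closely their replicates matched. The spread within a genotype ran from an SD of 0.033 to one of 0.508, the highest being that of AT2G41090, which read 11.73, 12.53 and 12.12 in wild type and 12.01, 12.43 and 11.25 in the mutant. AT5G10695, AT3G22240, AT3G15450 and AT1G13930 followed, at 0.454, 0.434, 0.427 and 0.423.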

How the data were processed

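RNA of 3 wild-type and 3 gtl1-1 mutant trichome samples was hybridised to Affymetrix arrays after labelling from the 3′ end, per the labels' protocols. The log2 values of 22810 probe sets were deposited by the authors, who used GCRMA according to the submitters' processing notes (version not given in the sources used here). This method subtracts background with a model of probe sequence, applies quantile normalisation and combines the probes of a set. That the scale is log2 follows from the values (2.14 to 15.5). Groups and replicate numbers came from the labels.

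The 64 control probe sets were left out, and probe sets above the 40th percentile of their own array on at least 3 arrays were tested (13682). Names came from the platform annotation joined to a TAIR10.1 gene table: 13513 named 1 gene (13436 with an entry in that table), 503 several, 8730 none. Genotypes were compared with limma 3.58.1 (lmFit, eBayes) in R 4.3.3, two-sided, with Benjamini-Hochberg adjustment over all probe sets tested and a call at an adjusted p under 0.05. The fit was tested on simulated data. Differences are mutant minus wild type. Other steps used Python 3.11.15 and pandas 2.3.3.

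The members and lists were chosen with earlier results of these data known. Named genes are the 30 named members, the 3 of highest signal, any called member, the 10 largest differences each way (those not printed are in the counts), the 5 of largest spread, 3 on each side of the limit and genes crossing rank 200. The rule also covered the 20 of highest signal, whose unnamed members past the third are given in counts only. Classes were planned from descriptions, which the gene table lacks, and were assigned by hand from names after the values were seen. Promoter and protein features were not analysed here.

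Deviations from the genotype means correlated at 0.127, 0.275 and 0.118 between arrays numbered 1, 2 and 3, each over 0.1. Of the pairs of unlike number, only wild type replicate 3 with mutant replicate 1 was above 0, at 0.0873. The others were negative, down to -0.212 for wild type replicate 2 with mutant replicate 1. Each array thus correlated best with the array of its own number in the other genotype. No label states that the numbers pair the arrays, and these values do not settle it. The main fit therefore held genotype only, and the replicate block was run as an alternative. Alternatives were other filters, normalisations, variance models, the replicate block, thresholds, averaging the probe sets of a gene, other choices of members and leaving out each array.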

Additional observations from a re-analysis of the deposited data

How the results depend on the processing

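The count of members called was 1 in the main setting, 0 with no filter, with the replicate block and at an adjusted p under 0.01, and 0 whichever array was left out (from 0 to 0). It was 3 for members chosen on the mutant arrays and 2 for the 150 highest genes with a descriptive name, a choice added after the data were seen. Against each lone wild-type array, with members chosen on the other 2, it was 0, and the lone array was assumed to vary like the mutant arrays. The median difference, -0.11 in the main setting, was -0.0576 after a second quantile normalisation, -0.0824 with a common median, -0.0632 and 0.0106 with members chosen on all 6 or on the mutant arrays, -0.0811 for 300 members, -0.0314 against wild type replicate 2 alone, and 0.0173 for the genes with a name. Without 1 array it ran from -0.13 to -0.09. The cause of these moves was not tested. The other results changed with the length of the list and the number of arrays, as they must. With 100 members, 85 were shared with the mutant list and 16 had an unadjusted p under 0.05; with 300, these were 268 and 50, and 92 did not overlap. Against lone wild-type replicates 1, 2 and 3, 100, 114 and 91 did not overlap, and 8 (replicate 1) and 7 (replicate 3) had an unadjusted p under 0.05. Without 1 array, the unadjusted count ran from 14 to 29 (28 with all) and the shared genes from 123 to 129. The count without overlap ran from 62 to 85 (55 with all). On all 6 arrays, 20.9% of all probe sets tested did not overlap, which is also the share to set beside the 300 members. With fewer arrays, groups stand apart more easily, most of all with a lone wild-type array. No share of all probe sets is given for those settings. Their counts therefore cannot be read as more separation than the 55 or 28 with all arrays.

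AT5G33370 kept its direction in every setting run and lost its call with no filter (limma adjusted p = 0.187), with the replicate block (0.0507) and without any 1 array. The block turned no other member's call. Sign changed for some genes that were not called in any setting run. A common median adds 0.0277 to every difference, so a change of sign there says nothing of a single gene. PRXR1 was at 0.0099 with a common median. GAPC2 was at 0.057 after a second quantile normalisation, 0.026 with a common median and 0.0023 with array weights, and TET8 at 0.028, 0.015 and 0.069. With array weights CYTC-1 was at -0.025 and LEA26 at -0.059, and LCR69 was at 0.014 after a second quantile normalisation. Without 1 array, the ranges that cross 0 were -0.013 to 0.24 for AT2G33850, -0.0996 to 0.0585 for PRXR1, -0.064 to 0.15 for UBC28, -0.196 to 0.261 for GAMMA-VPE, -0.057 to 0.053 for GAPC2, -0.0497 to 0.0602 for CYTC-1, -0.081 to 0.104 for TET8, -0.12 to 0.37 for AT3G22240, -0.039 to 0.15 for LEA26, -0.051 to 0.14 for DI19, -0.153 to 0.103 for LCR69, -0.0098 to 0.503 for AT5G10695, -0.14 to 0.014 for CURT1A, -0.497 to 0.091 for AT2G41090, -0.33 to 0.0597 for RALFL33 and -0.45 to 0.105 for AT5G11070.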
